A study of Mus musculus with 4 samples.

Results

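A set of 9 genes of the cytotoxic and CD8 lineage programme were read across 4 RNA sequencing libraries of CD4+ T cells from wild-type C57BL/6 mouse spleen, and each group had 1 library. They were taken by name from the 34745 genes of the table, and all 9 were present on a single identifier each: Gzma, Gzmb, Gzmc, Gzmk, Prf1, Nkg7, Cd8a, Cd8b1 and Ccl5. The Th17 library came from cells harvested after 3 days of Th17 differentiation, and the Treg library from cells harvested after 3 days of Treg differentiation. The Th0 library came from cells stimulated through CD3 and CD28 for 3 days, and the naive library from splenic CD4+ T cells sequenced without culture. The sources used here do not give the cytokines of the differentiation, the number of mice or the purity of the CD4 selection. Because each group had 1 library, the differences below could not be held against a spread between replicates, and the 95% intervals cover counting error alone.

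Cytotoxic lymphocytes kill through secretory granules. Perforin, the product of Prf1, opens pores in the membrane of the target cell, and granzymes, a family of serine proteases, enter through them. Granzyme B cleaves after aspartate and activates caspases, while granzymes A and K are tryptases that cleave after basic residues. NKG7 is a granule membrane protein needed for efficient granule release, and CCL5 is a chemokine that killer T cells and NK cells secrete. The alpha and beta chains of CD8, from Cd8a and Cd8b1, form the coreceptor for MHC class I, and helper T cells normally keep both genes silent. Conventional type 1 dendritic cells of the mouse spleen carry the alpha chain without the beta chain.

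Levels are given as CPM, read counts brought to a common library size with TMM factors, which balance the bulk of genes between libraries. Levels of different genes are compared only as the authors' FPKM, which divides by gene length. A gene was called higher or lower between a pair of libraries when its log2 ratio, taken after adding 1 CPM, was at least 2-fold and its counting interval excluded equality. Folds are given without the added CPM. The total count was 12414372 in Th17, 10256627 in Treg, 10272122 in Th0 and 11901949 in naive, so that 1 count was worth 0.0766, 0.0902, 0.114 and 0.0814 CPM in that order.

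The 9 genes lie in 6 places of the genome (GRCm38), and 3 of these places hold a pair. Gzmb (chromosome 14, 56258856 to 56262260) and Gzmc (56231401 to 56234656) are separated by 24.2 kb on the minus strand. Gzma (chromosome 13, 113093825 to 113100979) and Gzmk (113171608 to 113225908) are separated by 70.6 kb, also on the minus strand. Cd8b1 (chromosome 6, 71322788 to 71337494) and Cd8a (71373427 to 71379173) are separated by 35.9 kb on the plus strand. Prf1 stands alone on chromosome 10 (61297836 to 61304263), Nkg7 on chromosome 7 (43437073 to 43438249) and Ccl5 on chromosome 11 (83525778 to 83530518). No member shared exon sequence with an overlapping gene of the GENCODE annotation, and 0 had a transcript of another gene aligned over at least 300 nt at 95% identity.

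The 250 bases before the gene start (RefSeq, GRCm38.p6) are shown for Gzma, Gzmb, Gzmc and Prf1, because the granzymes of the 2 clusters and perforin had different profiles across the libraries. Capitals mark 4 short motifs searched on both strands: the RUNX motif TGTGGT, the T-box motif TCACAC, the AP-1 motif TGANTCA and the CRE core TGACGT.
Gzma: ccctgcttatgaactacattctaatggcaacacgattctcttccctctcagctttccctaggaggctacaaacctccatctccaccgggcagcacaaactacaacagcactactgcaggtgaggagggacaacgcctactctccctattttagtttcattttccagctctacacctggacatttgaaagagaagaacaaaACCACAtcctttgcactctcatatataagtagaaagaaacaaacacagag
Gzmb: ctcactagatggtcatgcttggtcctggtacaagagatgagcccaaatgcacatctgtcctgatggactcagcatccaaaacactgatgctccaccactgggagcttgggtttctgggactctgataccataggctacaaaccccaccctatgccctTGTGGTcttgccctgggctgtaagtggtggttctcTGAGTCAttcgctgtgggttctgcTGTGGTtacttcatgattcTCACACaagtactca
Gzmc: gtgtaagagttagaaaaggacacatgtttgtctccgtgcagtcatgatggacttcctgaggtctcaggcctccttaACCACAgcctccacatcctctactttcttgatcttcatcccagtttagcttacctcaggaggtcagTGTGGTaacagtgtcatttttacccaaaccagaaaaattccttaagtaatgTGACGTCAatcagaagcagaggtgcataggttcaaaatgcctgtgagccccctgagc
Prf1: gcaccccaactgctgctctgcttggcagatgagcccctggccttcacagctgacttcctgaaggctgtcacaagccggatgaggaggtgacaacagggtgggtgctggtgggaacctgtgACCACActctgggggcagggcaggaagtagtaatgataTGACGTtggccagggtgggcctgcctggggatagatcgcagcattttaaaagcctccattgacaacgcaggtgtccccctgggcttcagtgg
These windows are chr13:113100982-113101231 for Gzma, chr14:56262335-56262584 for Gzmb, chr14:56234658-56234907 for Gzmc, all on the minus strand, and chr10:61297586-61297835 on the plus strand for Prf1. Positions count from the RefSeq start, with -1 the base before it. For Gzmb that start lies upstream of the locus given above, which ends at 56262260. The Gzmb window held a RUNX motif starting at positions -93 and -34, an AP-1 motif at -58 and a T-box motif at -15. The Gzma window held a RUNX motif at -50, on the opposite strand. The Gzmc window held RUNX motifs at -174, on the opposite strand, and at -108. Its CRE cores at -57 and, on the opposite strand, at -55 overlap in the same stretch, TGACGTCA. The Prf1 window held a RUNX motif at -130, on the opposite strand, and a CRE core at -92. A promoter was found for 7 of the 9 members, with Cd8b1 and Ccl5 the other two. Of these 7, 5 held the RUNX motif, 3 the T-box motif, 1 the AP-1 motif and 2 the CRE core, against 14.04%, 12.3%, 6.75% and 6.46% of 32817 promoter windows of the same length. Among the 7, the windows of Gzmk (chr13:113180966-113181215) and Nkg7 (chr7:43436888-43437137) reach inside the locus given above, because the RefSeq start lies within it. A match of letters is a description and does not show that a factor binds there.

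Cd4, the coreceptor for MHC class II, stood at 1007 CPM in Th17, 1199 in Treg, 957 in Th0 and 696 in naive. Per length, Cd8b1 reached 5.80%, 6.54%, 11.2% and 10.6% of the Cd4 level in Th17, Treg, Th0 and naive, and Cd8a 1.16%, 1.65%, 2.41% and 3.14%. Cd4 was thus far above both CD8 genes in each library. The lengths behind these FPKM exceed the GENCODE exons for Cd8a (7695 against 3637 nt) and for Cd4 (4959 against 4032 nt). This sets the height of the shares but not their order between libraries. The naive library also held transcripts of other cells. Macrophage and monocyte markers summed to 52.2 CPM in Th17, 55.4 in Treg and 36.2 in Th0, against 4615 in naive. B cell markers summed to 238, 111 and 444 CPM in the same cultures, against 3253 in naive, and NK cell markers to 27.4, 42.5 and 23.6 CPM, against 172 in naive. Without Fcgr3, which macrophages also express, the NK sums were 22.9 CPM in Th17, 37.0 in Treg, 20.6 in Th0 and 87.1 in naive, an alternative added after the values were seen. In these bulk samples fewer cells of a type and less RNA per cell cannot be told apart.

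**Figure D1:**
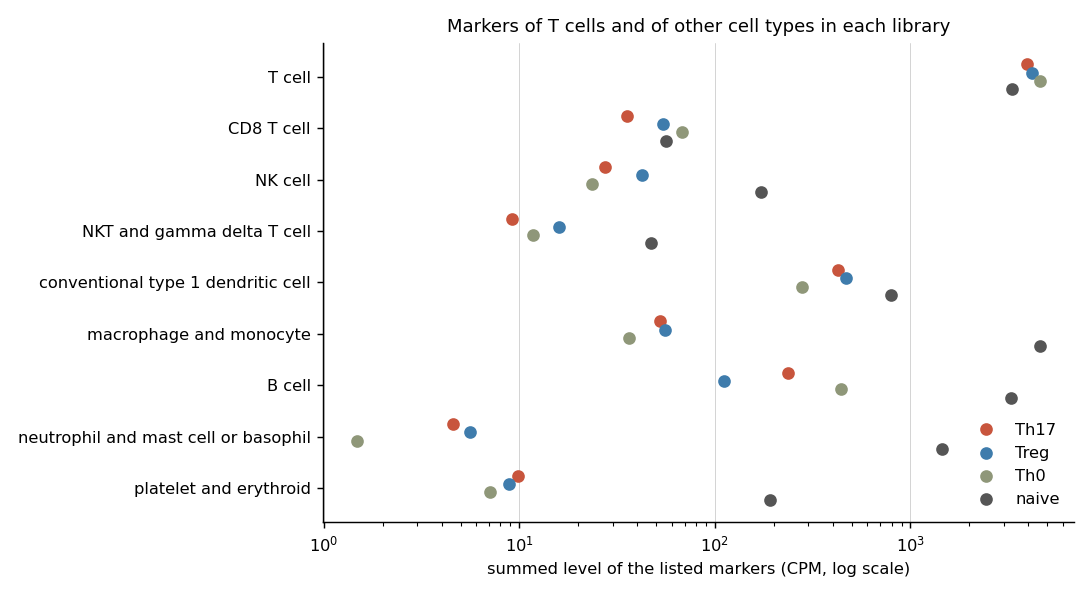
Summed level in CPM (log scale) of the fixed marker lists drawn, 1 point for each of the Th17, Treg, Th0 and naive libraries. The plasmacytoid dendritic cell list is not drawn, and summed to 109 CPM in Th17, 101 in Treg, 174 in Th0 and 221 in naive. The naive points lie to the right of the cultured ones for NK cells (172 CPM), macrophages (4615 CPM) and B cells (3253 CPM), while the T cell and CD8 points of the 4 libraries lie close together.

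Gzma was highest in the polarised cultures. Gzma had 157 CPM (interval 150 to 164; 2046 counts) in Th17, 190 CPM (182 to 198; 2107 counts) in Treg, 44.1 CPM (39.8 to 48.7; 386 counts) in Th0 and 12.5 CPM (10.6 to 14.6; 153 counts) in naive. Both polarised cultures were thus far above Th0 and naive, with no overlap of intervals between any pair of libraries. Gzma was 12.6-fold higher in Th17 than in naive (10.7 to 14.9), 15.3-fold higher in Treg than in naive (12.9 to 18.1) and 3.54-fold higher in Th0 than in naive (2.93 to 4.30). It was 3.56-fold higher in Th17 than in Th0 (3.19 to 3.97) and 4.31-fold higher in Treg than in Th0 (3.86 to 4.82). For Th17 over Treg the ratio was 0.825 (0.776 to 0.877), short of the 2-fold limit, and the gene was not called. Per length, Gzma stood above 99.1% of the genes detected in Th17 and 99.2% of those detected in Treg, against 93.6% in Th0 and 81.1% in naive.

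Gzmb was highest in the Th0 library. It had 29.3 CPM (26.5 to 32.4; 383 counts) in Th17, 25.2 CPM (22.3 to 28.3; 279 counts) in Treg, 146 CPM (138 to 154; 1280 counts) in Th0 and 9.93 CPM (8.25 to 11.9; 122 counts) in naive. The Th17 and Treg levels overlapped, and the Th0 and naive levels lay above and below both. Gzmb was lower in Th17 than in Th0 by 4.98-fold (4.44 to 5.60), and in Treg by 5.81-fold (5.10 to 6.64). Against naive it was 2.95-fold higher in Th17 (2.40 to 3.65), 2.53-fold higher in Treg (2.04 to 3.16) and 14.7-fold higher in Th0 (12.2 to 17.9). The Treg call was lost with scaling to CD3 chain counts, at a log2 ratio of 0.88.

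Gzma and Gzmb thus stood in opposite order between the polarised cultures and Th0. The FPKM of Gzmb over that of Gzma was 0.116 in Th17 (0.104 to 0.129), 0.0820 in Treg (0.0721 to 0.0929), 2.05 in Th0 (1.83 to 2.31) and 0.494 in naive (0.386 to 0.630). The FPKM of the 4 granzymes summed to 214 in Th17, 261 in Treg, 134 in Th0 and 23.6 in naive. Gzma made up 87.9%, 89.6%, 32.0% and 62.1% of these sums and Gzmb 10.2%, 7.35%, 65.6% and 30.7%. These ratios and shares are taken within a library, so no scaling between libraries enters them. The sums themselves do depend on scaling, because FPKM follows library totals and not the TMM factors. The Th0 factor was the lowest, 0.852, so that Th0 stands lower in the FPKM sums than it would on the CPM scale.

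**Figure D2:**
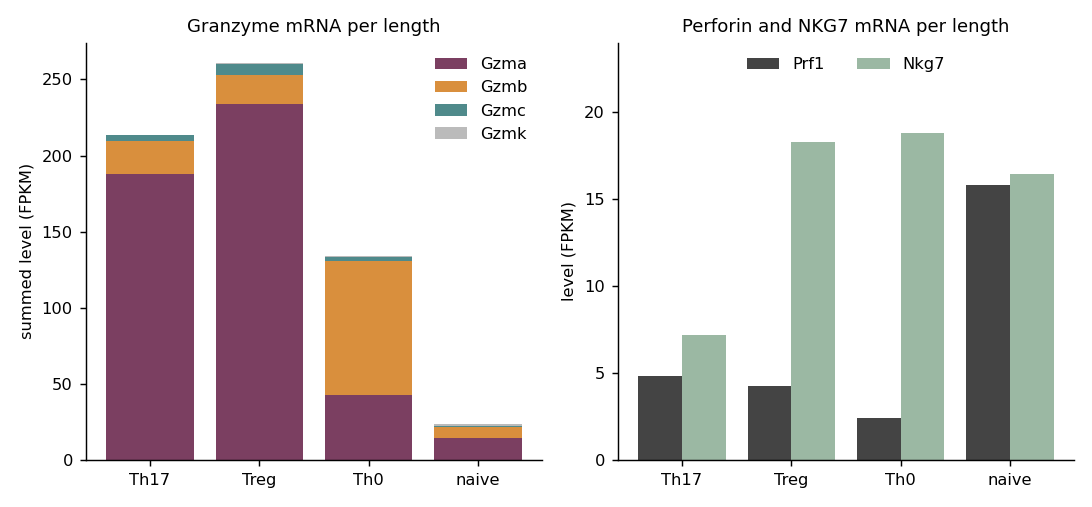
Left, authors' FPKM of Gzma, Gzmb, Gzmc and Gzmk stacked for each library, and right, FPKM of Prf1 and Nkg7. Gzma fills most of the Th17 and Treg bars (87.9% and 89.6%) and Gzmb most of the Th0 bar (65.6%), while Prf1 is tallest in naive at 15.8 FPKM.

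Gzmc, a granzyme next to Gzmb in the mouse genome, was low in every library. It had 3.37 CPM (2.45 to 4.53; 44 counts) in Th17, 6.31 CPM (4.92 to 7.98; 70 counts) in Treg, 2.97 CPM (1.94 to 4.35; 26 counts) in Th0 and 0.407 CPM (0.132 to 0.950; 5 counts) in naive. Treg was the highest, Th17 and Th0 overlapped, and naive was the lowest. Gzmc was called higher than naive in all 3 cultured libraries, at 8.28-fold in Th17 (3.29 to 26.8), 15.5-fold in Treg (6.34 to 49.3) and 7.30-fold in Th0 (2.76 to 24.3). With a pseudocount of 4 CPM the Th17 and Th0 calls were lost, at log2 ratios of 0.74 and 0.66. Its ratio of Treg to Th0 was 2.13 (1.34 to 3.47), with a log2 ratio of 0.88 on the scale of the rule, short of the limit, so it was not called there. With library totals in place of TMM that log2 ratio was 1.15, and the gene was called.

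Gzmk was near the limit of detection, with 9 counts (0.690 CPM, 0.315 to 1.31) in Th17, 15 counts (1.35 CPM, 0.757 to 2.23) in Treg, 11 counts (1.26 CPM, 0.627 to 2.25) in Th0 and 33 counts (2.69 CPM, 1.85 to 3.77) in naive. Naive was the highest, but its interval overlapped those of Treg and Th0, and the 3 cultured libraries overlapped. The ratio of naive to Treg was 1.99 (1.05 to 3.93), an interval that excluded equality. Gzmk was called lower in Th17 than in naive, 3.895-fold (1.82 to 9.26), and was not called in the other 5 comparisons. With a pseudocount of 4 CPM or on the authors' FPKM the Th17 call was lost, at log2 ratios of -0.51 and -0.76.

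The other granzymes of the cluster on chromosome 14 were nearly silent. Gzmf, Gzmg and Gzmn had 0 counts in every library, and Gzmd and Gzme had 2 and 1 counts in Treg and 0 elsewhere. The depth allows up to 0.230 CPM in Th17, 0.271 in Treg, 0.343 in Th0 and 0.244 in naive for a count of 0, taken as 3 counts. The mast cell proteases and cathepsin G of the same cluster had at most 20 counts. Mcpt1 had 0.536 CPM in Th17, 1.80 in Treg, 0 counts in Th0 and 0.244 CPM in naive, and was called higher in Treg than in Th0 and than in naive. Ctsg had 0.230 CPM in Th17, 0 counts in Treg and in Th0 and 1.63 CPM in naive, and was called lower than naive in each culture. Mcpt8 had 0.536 CPM in Th17, 0.631 in Treg, 0 counts in Th0 and 1.47 CPM in naive, and was called lower than naive in Th0. Gzmm, a granzyme outside that cluster, had 0.0766 CPM in Th17, 0.721 in Treg, 0.914 in Th0 and 1.14 in naive.

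Prf1 followed neither granzyme. It had 9.42 CPM (7.83 to 11.2; 123 counts) in Th17, 8.12 CPM (6.53 to 9.98; 90 counts) in Treg, 5.83 CPM (4.34 to 7.66; 51 counts) in Th0 and 31.5 CPM (28.4 to 34.8; 387 counts) in naive. Naive lay above the 3 cultured libraries, among which neighbours in the order overlapped. Prf1 was 3.34-fold lower in Th17 than in naive (2.72 to 4.13), 3.88-fold lower in Treg than in naive (3.08 to 4.94) and 5.41-fold lower in Th0 than in naive (4.03 to 7.39). The ratio of Th17 to Th0 was 1.62 (1.16 to 2.29) and that of Treg to Th0 was 1.39 (0.977 to 2.005), and neither was called. Per length, Prf1 over Gzmb was 0.222 in Th17, 0.223 in Treg, 0.0275 in Th0 and 2.19 in naive. The Th0 library, with the most Gzmb, therefore had the least Prf1 beside it.

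Ccl5 showed the largest ratios to naive among the members called lower. It had 3.45 CPM (2.51 to 4.61; 45 counts) in Th17, 7.21 CPM (5.72 to 8.98; 80 counts) in Treg, 4.91 CPM (3.55 to 6.62; 43 counts) in Th0 and 64.7 CPM (60.3 to 69.4; 795 counts) in naive. Naive stood far above the 3 cultured libraries, of which Th17 was the lowest, with an interval below that of Treg. Ccl5 was 18.8-fold lower in Th17 (13.9 to 25.9), 8.97-fold lower in Treg (7.12 to 11.4) and 13.2-fold lower in Th0 (9.69 to 18.4) than in naive. Relative to Cd3e, a chain of the T cell receptor complex, its level per length was 1.997% in Th17, 4.08% in Treg, 1.54% in Th0 and 38.5% in naive. The length behind the Cd3e value, 1436 nt, is shorter than its 4080 nt of GENCODE exons, which sets the height of these shares but not their order.

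Prf1, Gzmk and Ccl5 were highest in the same library that held markers of NK cells and of gamma delta and NKT cells. Of the NK cell list, 11 of 13 members were called lower in Th17 than in naive, 7 of 13 in Treg and 9 of 13 in Th0, where 17.4%, 16.8% and 27.2% of all genes tested were called lower. Ncr1, an NK receptor, had 0 counts in Th17, 0.180 CPM in Treg, 0 counts in Th0 and 4.80 CPM in naive, and Klrb1c had 0.919 CPM, 1.08 CPM, 0 counts and 12.1 CPM. The gamma delta T and NKT cell list summed to 9.19 CPM in Th17, 15.9 in Treg, 11.8 in Th0 and 47.0 in naive, and none of its 7 genes was at 0 in any library. The part of such cells in the levels of Prf1, Gzmk and Ccl5 was not tested.

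Nkg7 was lowest in the Th17 library. It had 11.0 CPM (9.23 to 12.9; 143 counts) in Th17, 27.1 CPM (24.1 to 30.3; 300 counts) in Treg, 35.3 CPM (31.5 to 39.5; 309 counts) in Th0 and 25.5 CPM (22.7 to 28.5; 313 counts) in naive. On the CPM scale Treg and naive overlapped, Th0 was above them and Th17 below. As a share of the Cd3e level per length, Nkg7 stood at 4.76% in Th17, 11.5% in Treg, 8.32% in Th0 and 11.4% in naive. Relative to Cd3e, Th0 thus lay below Treg and naive, and Th17 was again the lowest. Nkg7 was 3.22-fold lower in Th17 than in Th0 (2.63 to 3.96), 2.47-fold lower in Th17 than in Treg (2.02 to 3.04) and 2.33-fold lower in Th17 than in naive (1.90 to 2.85). For Treg over naive the ratio was 1.06 (0.903 to 1.25), for Th0 over naive 1.39 (1.18 to 1.63) and for Treg over Th0 0.767 (0.652 to 0.901), and none of these was called. The call against naive was lost with a pseudocount of 4 CPM, at a log2 ratio of -0.98.

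The CD8 chains were called in no comparison. Cd8a had 18.2 CPM (15.9 to 20.6; 237 counts) in Th17, 30.8 CPM (27.6 to 34.2; 341 counts) in Treg, 35.8 CPM (31.9 to 39.9; 313 counts) in Th0 and 33.9 CPM (30.8 to 37.4; 417 counts) in naive. Cd8b1 had 17.5 CPM (15.3 to 19.9; 228 counts) in Th17, 23.4 CPM (20.7 to 26.5; 260 counts) in Treg, 32.1 CPM (28.5 to 36.1; 281 counts) in Th0 and 22.1 CPM (19.6 to 24.9; 272 counts) in naive. Th17 was the lowest for both genes on the CPM scale. Relative to Cd3e, Cd8b1 per length stood at 8.19% in Th17, 10.7% in Treg, 8.16% in Th0 and 10.7% in naive, so that Th0 was as low as Th17. The ratio of Th17 to Th0 was 0.508 for Cd8a (0.427 to 0.603) and 0.544 for Cd8b1 (0.455 to 0.650), both close to the 2-fold limit. With DESeq2 size factors Cd8a was called lower in Th17 than in Th0, at a log2 ratio of -1.0048, and with scaling to CD3 chain counts it was called lower in Th17 than in naive, at -1.09. For Treg over naive the ratios were 0.906 (0.783 to 1.05) and 1.06 (0.890 to 1.26).

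The balance of the CD8 chains differed between libraries. The FPKM of Cd8b1 over that of Cd8a was 4.99 in Th17 (4.14 to 6.01), 3.96 in Treg (3.35 to 4.66), 4.66 in Th0 (3.95 to 5.49) and 3.38 in naive (2.89 to 3.95). The naive interval lay below that of Th17, met that of Th0 at its edge and overlapped that of Treg. Among markers of conventional type 1 dendritic cells, Xcr1 had 0.0766 CPM in Th17, 0 counts in Treg, 0.114 CPM in Th0 and 16.03 CPM in naive, and Clec9a 0.460 CPM, 0.271 CPM, 0 counts and 20.3 CPM. The whole list of 9 genes summed to 424 CPM in Th17, 469 in Treg, 280 in Th0 and 791 in naive, of which Irf8 and Ly75 made up most in the cultured libraries. Of the 9, 6 were called lower than naive in Th17, 5 in Treg and 7 in Th0, and 2 were called higher in Th17 (Batf3 and Ly75), 2 in Treg (the same genes) and 1 in Th0 (Ly75). Over all genes tested, 17.4%, 16.8% and 27.2% were called lower in that order, and 15.6%, 14.9% and 18.5% higher. In this list 1 gene was at 0 counts in Th17, 2 in Treg (Xcr1 among them), 2 in Th0 (Clec9a and Cadm1) and 0 in naive. The part of these cells in the Cd8a level was not tested.

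The height of these ratios depends on the gene lengths behind the FPKM. The length that the authors' values imply was 7695 nt for Cd8a, longer than its whole locus of 5747 bp, and 1483 nt for Cd8b1, equal to its exons in GENCODE. With GENCODE exon lengths, 3637 nt for Cd8a, Cd8b1 over Cd8a was 2.36 in Th17, 1.87 in Treg, 2.20 in Th0 and 1.60 in naive. Nkg7 also had an implied length, 1600 nt, above its locus of 1177 bp, and its FPKM is lower than its exons of 914 nt would give. Among 8988 genes that reached 50 counts in each library, 703 had an implied length above the locus. Comparisons of the same gene between libraries are not touched, because the length was the same in all 4.

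**Figure D3:**
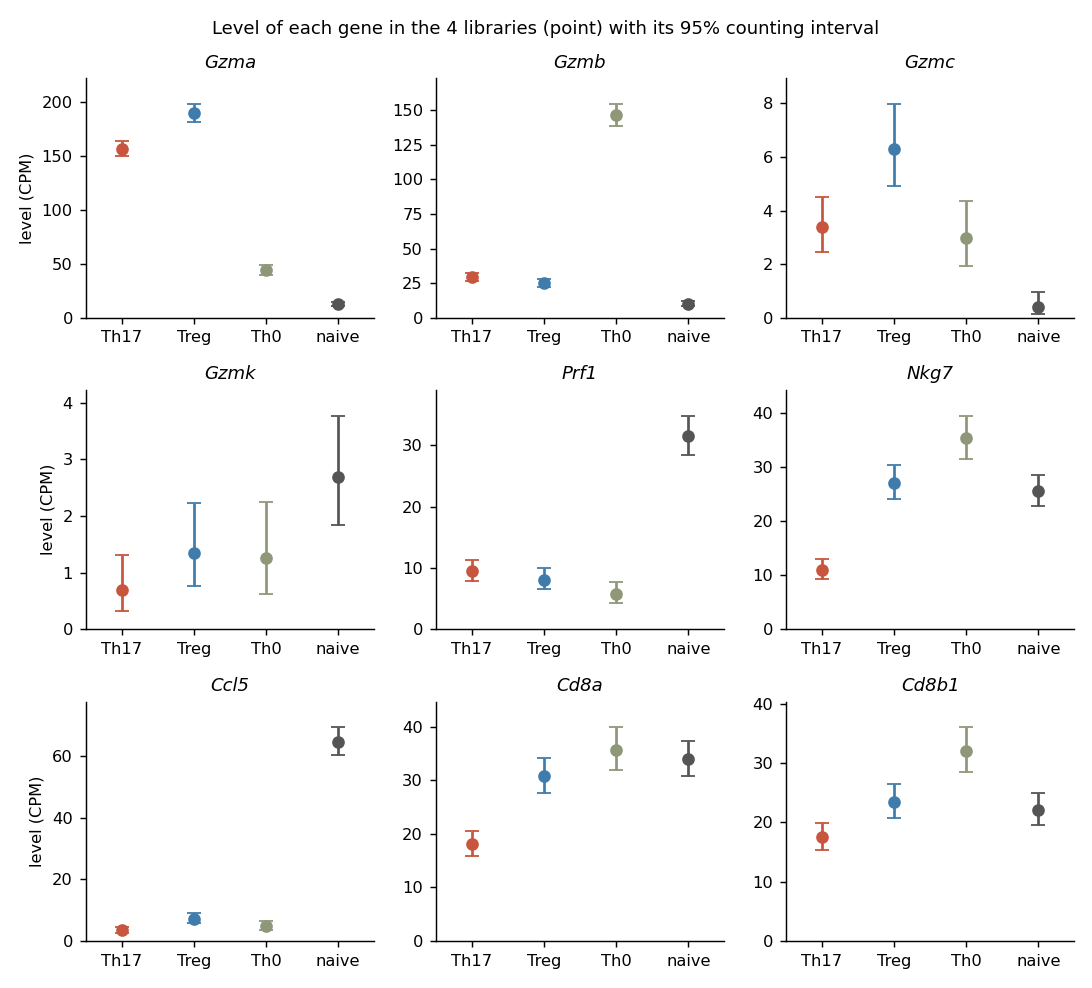
Level of each of the 9 genes in CPM in the Th17, Treg, Th0 and naive libraries, 1 point per library with its 95% exact Poisson counting interval, each panel on its own linear axis from 0. Gzma is highest in Treg (190 CPM) and Th17 (157 CPM), Gzmb in Th0 (146 CPM), and Prf1 and Ccl5 in naive (31.5 and 64.7 CPM).

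Counted over the 9 members, Th17 against naive had 3 called higher (Gzma, Gzmb and Gzmc) and 4 called lower (Gzmk, Prf1, Nkg7 and Ccl5), where 15.6% of 14523 genes tested were called higher and 17.4% lower. Treg against naive had the same 3 called higher and 2 called lower (Prf1 and Ccl5), where 14.9% of 14350 genes were called higher and 16.8% lower. Th0 against naive had those 3 higher and those 2 lower as well, where 18.5% of 13995 genes were called higher and 27.2% lower. These 3 comparisons share the naive library. All 9 members passed the filter of 10 counts in each comparison. The median log2 ratio of the members was -0.87, 0.08 and 0.46 for Th17, Treg and Th0 over naive, against -0.00069, -0.02 and -0.13 over all genes tested.

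Against Th0, Th17 had 1 member called higher (Gzma) and 2 called lower (Gzmb and Nkg7), where 20.4% of 13324 genes were called higher and 12.2% lower. Treg had Gzma called higher and Gzmb called lower, where 20.2% of 13138 genes were called higher and 11.9% lower. Between Th17 and Treg, 0 members were called higher and 1 was called lower (Nkg7), where 1.94% of 13346 genes were called higher and 1.21% lower. The member medians were -0.42, 0.06 and -0.48, against 0.10, 0.08 and 0.01 over all genes tested. The first pair of comparisons shares the Th0 library.

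**Figure D4:**
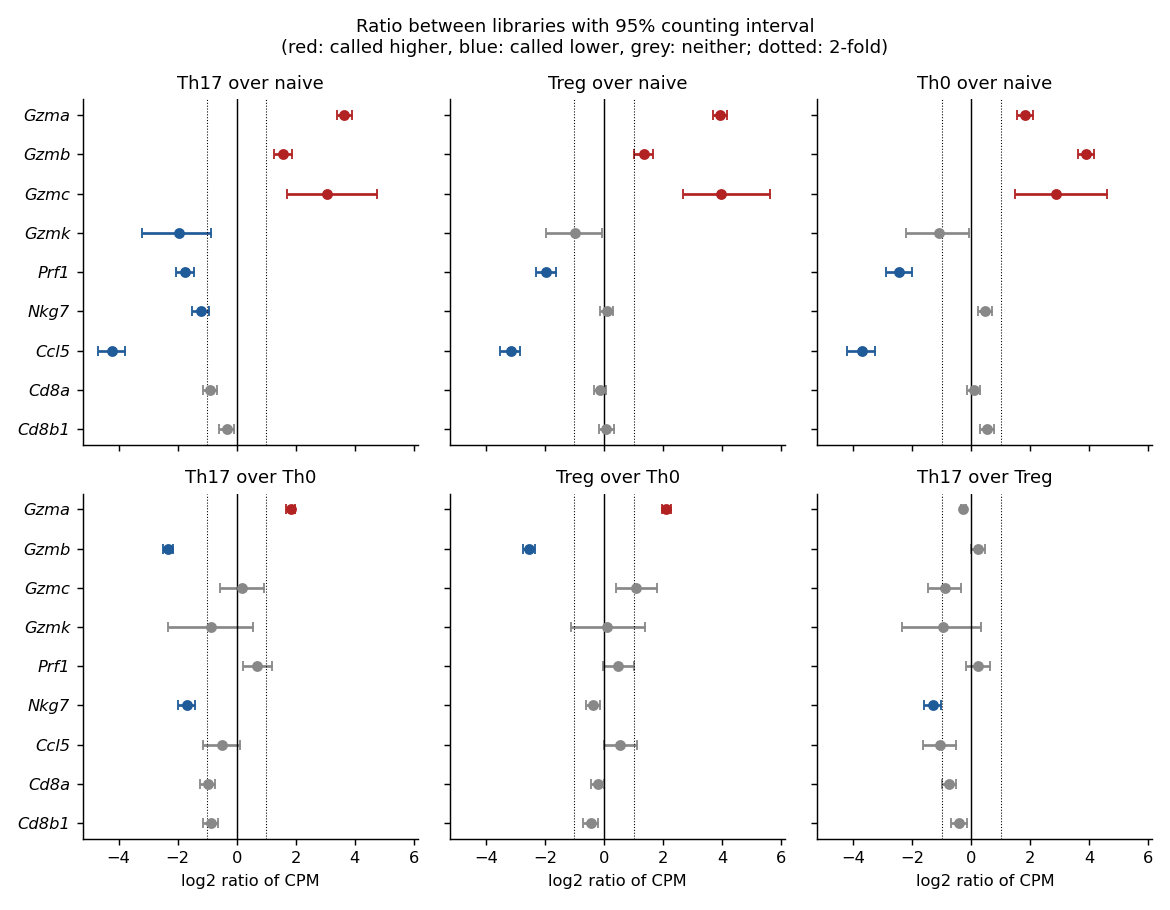
Log2 ratio of CPM (no pseudocount) with its 95% exact counting interval for each gene in the 6 comparisons, with dotted lines at 2-fold and colours for the calls. Gzma and Gzmb lie on opposite sides of 0 in both comparisons over Th0 (3.56-fold higher and 4.98-fold lower in Th17), and Cd8a and Cd8b1 are grey throughout.

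Counts of called genes in the lists that follow are to be read against the shares over all genes. These were 15.6% higher and 17.4% lower for Th17 over naive, 14.9% and 16.8% for Treg over naive, and 18.5% and 27.2% for Th0 over naive. Over Th0 they were 20.4% and 12.2% in Th17 and 20.2% and 11.9% in Treg. Th17 over Treg had 1.94% and 1.21%.

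Proteins that accompany granzymes in the granule were read from a list of 13 genes. Cst7, the inhibitor cystatin F, had 65.2 CPM in Th17, 46.4 in Treg, 142 in Th0 and 13.7 in naive, which is the order of Gzmb. Below Th0 it stood by 2.17-fold in Th17 and by 3.05-fold in Treg. Serpinb6b, an inhibitor of the serpin family, had 94.4, 132, 408 and 32.2 CPM in the same libraries and was called lower than Th0 in Th17 (4.32-fold) and in Treg (3.09-fold). Ctsw, a cathepsin of cytotoxic cells, had 158 CPM in Th17, 273 in Treg, 118 in Th0 and 32.5 in naive, which is the order of Gzma, and was 2.32-fold higher in Treg than in Th0. Serpinb9, which inhibits granzyme B, had 16.2, 30.6, 39.0 and 31.4 CPM, and was called lower in Th17 than in Th0 (2.40-fold).

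Ctsc, the protease that activates granzyme precursors, had 46.3 CPM in Th17, 61.7 in Treg, 85.8 in Th0 and 269 in naive. It was called lower than naive in each culture, 5.82-fold in Th17, 4.37-fold in Treg and 3.14-fold in Th0. The part of the other cells of the naive library in the Ctsc level was not tested. Srgn, the proteoglycan that packs granzymes, had 458, 233, 323 and 254 CPM and was called in no comparison. Over naive, 3 of the 13 were called higher and 2 lower in Th17 (median log2 ratio -0.40; all genes 15.6% and 17.4%), and likewise in Treg (median -0.35), while 4 were higher and 2 lower in Th0 (median 0.24). Against Th0, 0 were higher and 3 lower in Th17 (median -0.33), and 1 was higher and 2 lower in Treg (median -0.24). Between Th17 and Treg 0 of the 13 were called (median -0.24).

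Of 11 genes for docking and release of granules, Stx11, a syntaxin for granule fusion, had 81.1 CPM in Th17, 59.2 in Treg, 15.0 in Th0 and 28.7 in naive. It was 5.42-fold higher in Th17 and 3.96-fold higher in Treg than in Th0. Sytl3 had 32.2, 32.8, 14.7 and 8.14 CPM and was 2.18-fold and 2.23-fold higher in the same comparisons. Sytl2, which tethers granules through Rab27a, had 2.45 CPM in Th17, 4.78 in Treg, 9.94 in Th0 and 38.9 in naive, and was called lower than naive in each culture. Unc13d, the priming factor Munc13-4, stood between 159 and 210 CPM in all 4 libraries and was called in no comparison. Over naive, 2 of the 11 were higher and 2 lower in both Th17 and Treg (medians 0.08 and 0.10), near the shares over all genes of 15.6% and 17.4% for Th17 and 14.9% and 16.8% for Treg, and 0 were higher and 1 lower in Th0 (median -0.19). Over Th0, 2 were higher and 1 lower in Th17 (median 0.14) and 2 were higher and 0 lower in Treg (median 0.16), and between Th17 and Treg 0 were called (median -0.03).

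Among death ligands and effector cytokines, Fasl was highest in Treg, with 24.7 CPM in Th17, 64.1 in Treg, 18.2 in Th0 and 16.4 in naive. It was 3.53-fold higher in Treg than in Th0 and 3.8997-fold higher in Treg than in naive, and it was 2.60-fold lower in Th17 than in Treg. Tnfsf10 (TRAIL) had 5.82 CPM in Th17, 15.3 in Treg, 5.03 in Th0 and 33.4 in naive. Lta had 157, 148, 7.42 and 17.2 CPM, and was 21.2-fold higher in Th17 and 19.9-fold higher in Treg than in Th0. Over naive, 2 of the 7 were higher and 1 lower in Th17 (median 0.56), 2 higher and 1 lower in Treg (median 0.64), and 0 higher and 3 lower in Th0 (median -0.38). Against Th0, 3 were higher in Th17 (median 0.42) and 4 in Treg (median 1.44), and 0 were lower. Between Th17 and Treg 1 was higher and 2 were lower (median 0.06).

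A list of 8 other chemokine and chemokine receptor genes was read, not all of them restricted to cytotoxic cells. Of these, 7 were called lower than naive in Th17 (median -3.00), 7 in Treg (median -2.93) and 8 in Th0 (median -3.62), with 0 higher. The shares of all genes tested that were called lower were 17.4%, 16.8% and 27.2% in that order. Ccl3 had 1.76 CPM in Th17, 1.62 in Treg, 1.60 in Th0 and 21.7 in naive. Xcl1, whose receptor Xcr1 marks type 1 dendritic cells, had 0 counts in Th17, 0 counts in Treg, 0.685 CPM in Th0 and 6.76 CPM in naive. Cxcr3 had 2.38, 2.89, 1.71 and 45.8 CPM. Over Th0, 2 of 5 tested genes were higher in Th17 (median 0.31) and 2 of 6 in Treg (median 0.73), with 0 lower, and Th17 over Treg had 1 higher and 1 lower of 6 (median 0.26). Macrophages also express several of these genes, and the macrophage markers were called lower than naive for 11 of 11 genes in each culture. Their part in Ccl5, Ccl3 and these receptors was not tested.

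Tbx21 (T-bet), which activates Gzmb and Ifng, had 6.13 CPM in Th17, 9.02 in Treg, 67.6 in Th0 and 23.4 in naive. Both polarised cultures were called lower than Th0, by 11.0-fold in Th17 and 7.50-fold in Treg, and Tbx21 was 2.88-fold higher in Th0 than in naive. Ifng did not share this order, with 6.28 CPM in Th17, 11.0 in Treg, 7.31 in Th0 and 9.85 in naive, and was called in no comparison. Eomes, which activates Prf1 and Gzmb, had 1.69, 2.16, 4.45 and 12.3 CPM and was called lower than naive in each culture, 7.29-fold in Th17, 5.68-fold in Treg and 2.76-fold in Th0. It is also a member of the NK cell list.

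Runx3, which drives the CD8 lineage and silences Cd4 there, had 343 CPM in Th17, 265 in Treg, 148 in Th0 and 126 in naive. It was called higher in Th17 than in Th0 (2.32-fold) and than in naive (2.71-fold), and in Treg than in naive (2.09-fold). Zbtb7b (ThPOK), which keeps the CD8 genes silent in helper T cells, had 229, 226, 164 and 298 CPM and was called in no comparison. Id2 had 99.98, 48.0, 21.0 and 158 CPM, and Irf4 999.9, 685, 83.4 and 92.5 CPM. Over naive, the 19 regulators had 5 higher and 5 lower in Th17 (median -0.74), 3 higher and 6 lower in Treg (median -0.68), and 3 higher and 4 lower in Th0 (median -0.15). The shares over all genes were 15.6% and 17.4%, 14.9% and 16.8%, and 18.5% and 27.2% in that order. Against Th0, 5 were higher and 6 lower in Th17 (median 0.21) and 3 higher and 6 lower in Treg (median -0.30), and Th17 over Treg had 2 higher and 0 lower (median 0.16).

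The 9 members did not form a common profile. The root mean square difference between log2(CPM + 1) profiles, each centred on its own mean over the 4 libraries, was 0.21 between Cd8a and Cd8b1, the closest pair, and 0.25 between Nkg7 and Cd8a. It was 1.24 between the neighbours Gzmb and Gzmc, 1.82 between Gzma and Gzmb and 1.89 between the neighbours Gzma and Gzmk. Gzmk (at most 2.69 CPM) and Gzmc (at most 6.31 CPM) lie near the added 1 CPM, which by construction flattens their profiles and limits these distances. Among 9867 genes with at least 10 CPM in a library, the closest to Gzma were Cpt1c (0.18), Ptgfrn (0.19) and Ppp1r13l (0.19). The closest to Gzmb were Mnd1 (0.19), Snhg6 (0.21) and Esco2 (0.21). Ccl5 was closest to Slamf6 (0.02), Nlrc4 (0.11) and Ms4a6c (0.11), and Prf1 to Taf7 (0.04), Daglb (0.05) and Cyp4v3 (0.08). Nkg7 was closest to the granzyme B inhibitor gene Serpinb9 (0.15), then to Accs (0.21) and U2af1l4 (0.21). Cd8b1 was closest to Mrps24 (0.01), Smpd4 (0.03) and Gse1 (0.03), and Cd8a to Pdcd4 (0.06), Myl12a (0.08) and Commd8 (0.09). Over only 4 libraries such likeness is common: 1353 genes lay within 0.25 of Cd8b1 and 314 of Cd8a, against 8 of Gzma and 4 of Gzmb.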

How the data were processed

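RNA of 4 libraries was sequenced on an Illumina HiSeq platform, per the labels' protocols. The authors deposited 1 table with whole-number read counts per gene, not normalized, and FPKM values (read counts per gene length and depth) per the file headers. The submitters' processing notes name Bowtie2, RSEM, GRCm38.p6 and mm10, without versions. The sources used here name neither the annotation nor the strandedness, so reads of a gene and an antisense partner cannot be separated. The FPKM equalled the deposited count divided by a fixed gene length and the table total (the implied length agreed within 0.1% between libraries for all 8988 genes that reached 50 counts in each).

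Groups follow the labelled cell type. Each group has 1 library, so groups were not tested against each other. Counts were scaled with TMM factors of 1.05 in Th17, 1.08 in Treg, 0.852 in Th0 and 1.03 in naive (edgeR 4.0.16, R 4.3.3). The 6 comparisons used genes reaching 10 counts in 1 of the 2 libraries, a pseudocount of 1 CPM, a 2-fold limit and, for the count ratio, a 95% Clopper-Pearson interval (exact, conditional on the summed count). Intervals of levels were exact Poisson intervals. Both cover counting error alone: no molecular identifiers are named. Folds against 0 counts used 3 counts. Alternatives were library totals, DESeq2 1.42.0 size factors, upper quartile, TMM without naive, scaling to CD3 chain counts, other pseudocounts and filters, and FPKM. The members and lists were chosen with earlier results of these data known. All 9 members are named. A member of the chemokine list is counted there but not reported here by name. From each list, genes were named among the 4 highest and the 4 called with the largest ratios per comparison, plus a set of regulators and markers. Genes outside that rule (Gzmg, Gzmn and Ifng) were named after their values were seen. Similar profiles left out predicted genes, receptor segments, mitochondrial genes and pseudogene names. Near-identical copies were sought with minimap2 in GENCODE vM21 transcripts. Scripts ran in Python 3.11.15 with scipy 1.17.1, pandas 2.3.3, numpy 2.4.6 and, for plots, matplotlib 3.10.9.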

Additional observations from a re-analysis of the deposited data

How the results depend on the processing

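Of 54 ratios of the members, 23 were called. Of 210 values of these under the alternatives run, 204 kept the call, 6 lost it and 0 changed sign, and 8 values of the other ratios gained a call. With a pseudocount of 4 CPM, Gzmc lost its call for Th0 and for Th17 over naive, and Gzmk and Nkg7 theirs for Th17 over naive, so that 2 members in place of 4 were called lower there. Gzmk also lost it on FPKM, and Gzmb for Treg over naive with scaling to CD3 chain counts, at a log2 ratio of 0.88. With a pseudocount of 0.25 CPM, 2 members in place of 1 were called lower in Th17 than in Treg, Ccl5 being added. With library totals, CD3 scaling, a pseudocount of 0.25 CPM or FPKM, 2 members in place of 1 were called higher in Treg than in Th0, Gzmc being added. The pseudocount acts by construction on low genes, and the cause of the other changes was not tested. Library totals moved the median of all genes by -0.26 (Th0 over naive), 0.29 (Th17 over Th0) and 0.33 (Treg over Th0), and CD3 scaling by -0.22, -0.39 and -0.61 for Th17, Treg and Th0 over naive. CD3 scaling turned the uncalled ratios of Nkg7 and Cd8b1 for Th0 over naive, 0.46 and 0.52, to -0.17 and -0.10. Of all calls for Th0 over naive, 40.5% were higher, against 29.6% with library totals, 17.6% with CD3 scaling and 31.8% on FPKM. For Th17 over Th0 the shares were 62.6%, 79.3%, 84.0% and 76.3%, and for Treg over Th0 62.9%, 81.8%, 76.7% and 78.4%. With CD3 scaling it was 29.1% in place of 47.0% for Treg over naive, and 77.0% in place of 61.5% for Th17 over Treg. No paired analysis was possible because each group has 1 library, and for the same reason no library could be left out. Gzmk and Gzmc, with at most 70 counts in a library, are limited by depth.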

Other observations

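B cell transcripts differed between the polarised cultures. Of 12 B cell markers, 9 were called higher in Th17 than in Treg and 0 lower, with a median log2 ratio of 1.27. Over all 13346 genes tested, 1.94% were called higher and 1.21% lower, and the median was 0.01. Pax5, a B cell transcription factor, had 19.5 CPM in Th17, 3.52 in Treg, 8.11 in Th0 and 140 in naive, and Cd79a, a chain of the B cell receptor, 14.2, 3.61, 16.9 and 165 CPM.

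Killer receptors that T cells can also carry were detected in culture. Klrd1 (CD94) had 5.36 CPM in Th17, 10.8 in Treg, 2.51 in Th0 and 13.7 in naive and was 4.31-fold higher in Treg than in Th0. Klrc2 had 0.996, 2.25, 0.343 and 4.56 CPM, with 3 counts in Th0. Of 9 tested genes of the NK cell list, 3 were called higher in Treg than in Th0 (Klrb1c, Klrd1 and Klrc2) and 0 lower. Over all genes tested, 20.2% were called higher and 11.9% lower. The part of NK cells in these levels was not tested. Itgae (CD103), which marks CD8 T cells of epithelia, Treg cells and some dendritic cells, had 6.51 CPM in Th17, 16.8 in Treg, 2.06 in Th0 and 18.0 in naive. It was 3.17-fold higher in Th17 and 8.16-fold higher in Treg than in Th0.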
